A study of Mus musculus with 7 samples.

Results

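The genes described here encode the nuclear-encoded machinery of oxidative phosphorylation, the mitochondrial chain that passes electrons from NADH and succinate to oxygen and uses the resulting proton gradient to make ATP. They were taken by gene symbol: every symbol starting with Nduf, Uqcr or Atp5, every Cox symbol followed by a digit from 4 to 8, and Sdha, Sdhb, Sdhc, Sdhd, Cyc1 and Cycs. The rule met 92 symbols, and 88 of the 23329 symbols of the table reached 10 counts summed over all libraries. The 4 that did not were Cox4i2, Cox6b2, Cox8b and Cox8c, which encode isoforms of cytochrome c oxidase subunits known from other tissues. By complex, the 88 comprised 36 subunits of complex I, 4 complex I assembly factors (Ndufaf1 to Ndufaf4), 4 subunits of complex II, 9 of complex III, cytochrome c, 15 genes of complex IV and 15 of complex V. Another 4 matched by their symbol alone and are not subunits of these complexes: Cox4nb, an older symbol of Emc8, whose protein sits in the endoplasmic reticulum, Atp5s, Atp5sl and Ndufa4l2, a paralogue of the complex IV gene Ndufa4. The 13 subunits encoded by mitochondrial DNA were not analysed here.

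RNA was measured in Beta-TC6, an insulin-secreting line from a mouse beta-cell tumour, so that every library comes from 1 cell line and none from islets. All libraries were wild type and from cells grown in DMEM with 15% serum (FBS) and given a forskolin pulse (10 µM for 1 h), a drug that raises cAMP and aligns the cells' circadian clocks. A group of 3 libraries was treated with IL1B, an inflammatory cytokine, and 4 libraries with vehicle. The sources used here do not give the dose and length of the IL1B treatment or the time of harvest. Nothing in the labels says that the libraries came from separate cultures, so p-values rest on a spread between these samples that may be technical only.

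Complex I (NADH dehydrogenase) and complex II (succinate dehydrogenase) feed electrons to ubiquinone, complex III hands them to cytochrome c, complex IV (cytochrome c oxidase) reduces oxygen, and complex V is the ATP synthase. In beta cells this chain couples glucose to insulin release: a rise in ATP closes the KATP channel, the membrane depolarises and calcium entry triggers exocytosis. IL1B is known to impair beta-cell respiration and secretion, and the comparison of its libraries with vehicle asks whether the transcripts of the chain itself moved.

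The motif of NRF1, a transcription factor known for driving genes of the respiratory chain, stands near the RefSeq start of several of these genes. Its sites are shown because it was found in a larger share of their promoters than of those of all tested genes. Of the 88 genes, 73 matched a RefSeq promoter (GRCm38.p6, 250 bases before to 50 bases after the start). The letters CGCATGCG, the core of the NRF1 site, which read the same on both strands, were found in 11 of the 73 promoters (15.1%), against 4.52% of 8934 promoters of tested genes and 2.07% of 27025 promoters in all. The 11 genes spread over complexes I, III, IV and V, cytochrome c and the assembly factor Ndufaf4: Atp5g2, Atp5j, Atp5k, Atp5l, Cox6a1, Cycs, Ndufa8, Ndufa11, Ndufaf4, Uqcr11 and Uqcrc1. For 6 of them the site is printed 5′ to 3′ on the gene's strand with 10 bases on each side, the core in capitals. The printed windows of Atp5g2 and Atp5k overlap GENCODE exons of the same genes, and the others overlap no exon.
Cycs, chr6:50566613-50566640, minus strand: catgctagctCGCATGCGcgcgcacaaa
Cox6a1, chr5:115349102-115349129, minus strand: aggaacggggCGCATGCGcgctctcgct
Atp5g2, chr15:102671071-102671098, minus strand: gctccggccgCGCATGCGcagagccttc
Atp5k, chr5:108434431-108434458, minus strand: ttcactgcggCGCATGCGcctttctggc
Ndufa11, chr17:56717693-56717720, plus strand: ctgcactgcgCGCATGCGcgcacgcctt
Ndufaf4, chr4:24897961-24897988, plus strand: cagatgtctgCGCATGCGcctgtgcgga
The cAMP response element TGACGTCA, which also reads the same on both strands, was found in 5 of 73 promoters (6.85%) against 3.82% of tested genes. All libraries were given forskolin, and a role of the element was not tested. Cycs, the gene of cytochrome c, has the element 169 bases before its start, upstream of its NRF1 core at 61 bases. The window printed for it overlaps an exon of another gene, 5430402O13Rik.
Cycs, chr6:50566721-50566748, minus strand: ggccagagggTGACGTCAcgcacgtcca
The YY1 motif AAGATGGCG was found on either strand in 8 of 73 (11.0%) against 3.56%, and the ETS motif CCGGAAGT in 5 (6.85%) against 9.12%. The NF-kB letters GGGACTTTC were found in 1 of 73 promoters (1.37%) against 0.504%, and the looser NF-kB consensus, which can overlap them, in 6 (8.22%) against 12.7%. A match describes the letters of these windows and shows no binding.

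Library totals ran from 5335607 to 7513934 counts, of which the 88 genes took 84031 to 118969 per library, or 1.58% to 1.80%. Beta-cell markers were present in every library, led by Ins2 (21180 ± 1599 CPM with vehicle and 22370 ± 715 with IL1B, where CPM is the count scaled by TMM to the library's size), while markers of leukocytes summed to 4.48 to 5.95 CPM with vehicle and 5.74 to 7.15 with IL1B, with S100a8 and S100a9 at 0 counts. Only 1 of 14 leukocyte, 2 of 12 stromal and 3 of 11 exocrine markers passed the filter on low counts, while the islet hormone genes Gcg and Sst were present at 312 ± 14.7 and 288 ± 20.8 CPM with vehicle. All 6 IL1B response genes chosen as a check rose, against 7.76% of all tested genes. Among them was the NF-kB inhibitor Nfkbia, from 31.1 ± 1.49 to 479 ± 18.4 CPM. They were chosen with earlier results of these data known, so their rise is a description and not an independent check. In a line of 1 cell type, fewer cells and less RNA per cell cannot be told apart in such libraries.

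A pair of libraries stood apart, and both bear on these genes. In the second vehicle library 85 of 86 tested genes of the chain lay above the mean of the other vehicle libraries, by a median of 0.23 on the log2 scale, and the exception was Sdha (-0.06). These transcripts are short, with a median of 934 nucleotides against 3086 over all tested genes, and over all genes the Spearman rho between that library's deviation and transcript length was -0.54 (12318 genes of 1 library, a description). Within the chain the rho was -0.43 over 85 genes. In the other vehicle libraries the median deviations were -0.08, -0.02 and -0.09. The second IL1B library differed in another way: its median deviation was 0.04, but the middle 50% of genes spanned 0.32 log2 units, against 0.18 and 0.14 in the other IL1B libraries. Its deviations did not follow length (rho -0.013 over 85 genes).

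**Figure D1:**
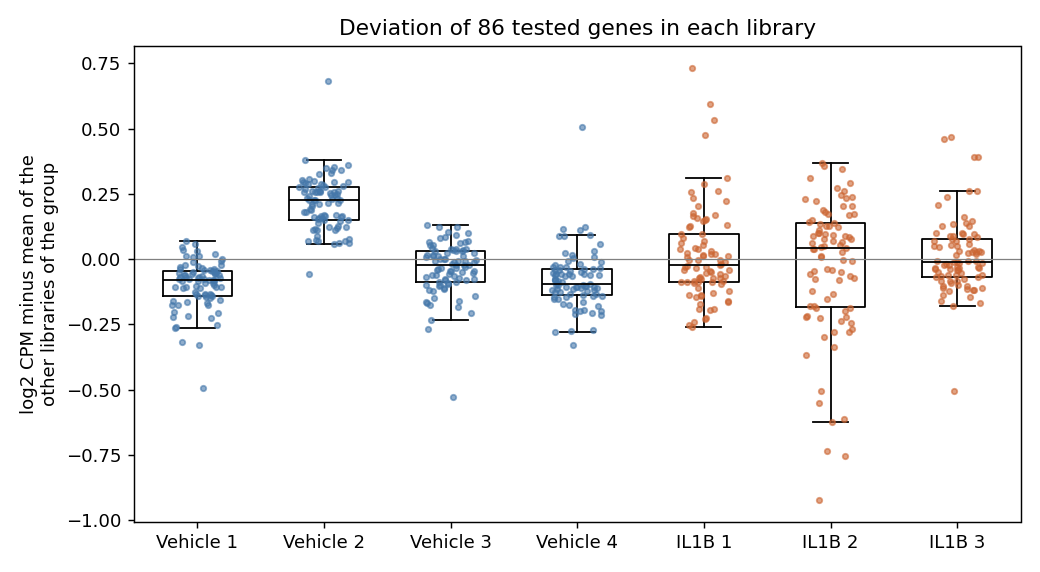
Deviation of each of the 86 tested genes from the mean of the other libraries of its group (vertical axis, log2 CPM), by library; each point is a gene, boxes span the middle 50% with the median as a line, and whiskers reach to 1.5 box lengths. Vehicle 2 sits above 0 for 85 genes, and IL1B 2 has the widest box, 0.32 log2 units.

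**Figure D2:**
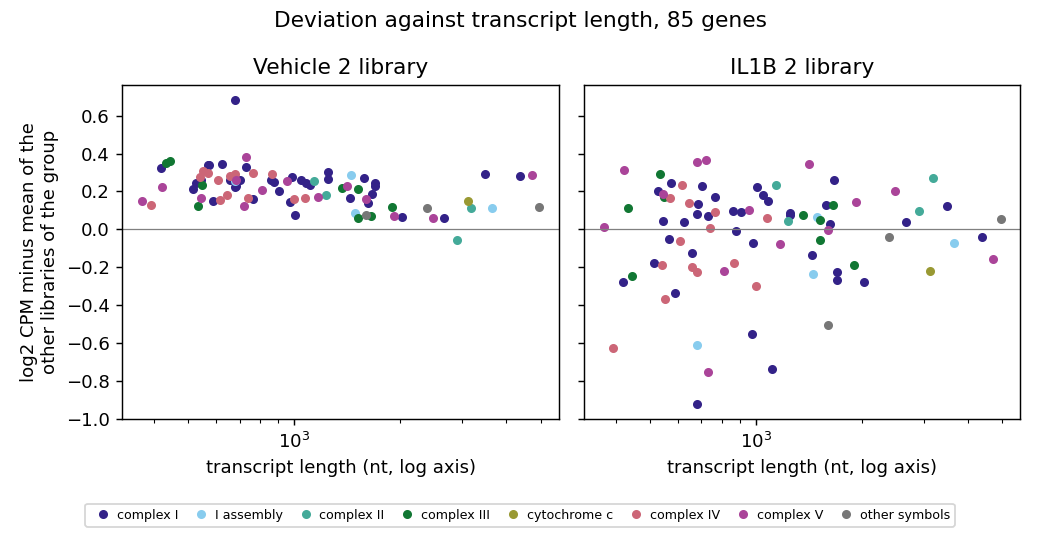
The same deviations against transcript length (horizontal axis, nucleotides on a log scale) for Vehicle 2 (left) and IL1B 2 (right), 85 genes coloured by complex. In Vehicle 2 the shorter transcripts lie higher (rho -0.43), and in IL1B 2 genes of every length lie on both sides of 0.

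Almost none of the genes of the chain passed the test. Of the 86 tested, 1 rose with IL1B, Cox7a2l, and 0 fell, while 11.0% of all 12480 tested genes passed (7.76% higher and 3.25% lower; edgeR quasi-likelihood test, Benjamini-Hochberg adjusted p under 0.05). At an unadjusted p under 0.05 there were 4 (Cox7a2l, Ndufaf4, Ndufb4 and Atp5g2), against 22.6% of all genes, and DESeq2 (6.67% of all genes higher, 2.23% lower) and limma-voom (7.69% and 3.09%) also gave 1 higher and 0 lower. The count upward was 0 with upper-quartile scaling (6.99% of all genes) and total-count scaling (6.76%), 1 with no filter on low counts (5.49%), 3 when the second vehicle library was left out (9.09%) and 6 when the second library of both groups was (9.36%). Downward it was 1 with total-count scaling (4.46%), 3 with no filter (2.78%), 1 when the first vehicle (2.24%) or the first IL1B library (3.06%) was left out, and 0 when both second libraries were (5.4%). The groups did not overlap in 2 genes, Cox7a2l and Atp5sl, both higher with IL1B, against 12.1% of all genes higher and 8.83% lower. The remaining 2 genes, Cox7b2 and Ndufa4l2, had 19 and 10 counts in all and were too low to test.

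The fitted changes were small and lay on both sides of 0. The median log2 fold change was 0.0063 over the 86 genes and -0.0087 over all tested genes, 48 genes were above 0 and 38 below, and the range ran from -0.33 (Atp5g2) to 0.21 (Cox7a2l). The balance of signs depends on the scaling and the libraries: 35 genes were above 0 with upper-quartile scaling, 32 with total-count scaling, 66 when the second vehicle library was left out and 69 when both second libraries were. In the last pair of fits the median over the genes of the chain was 0.06 in each, against -0.0051 and -0.0038 over all tested genes. The 95% intervals show what size of change the data leave room for. In 83 of 86 genes (96.51%) the interval lay within 1.5-fold either way, against 76.8% of all tested genes and 97.03% of the 4811 genes of at least 50 CPM with vehicle, which are counted about as well. The 3 genes whose interval passed 1.5-fold were Atp5g2 (0.652 to 0.977 of the vehicle level), Cox6a2 (0.633 to 1.19) and Cox7a1 (0.657 to 1.43).

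**Figure D3:**
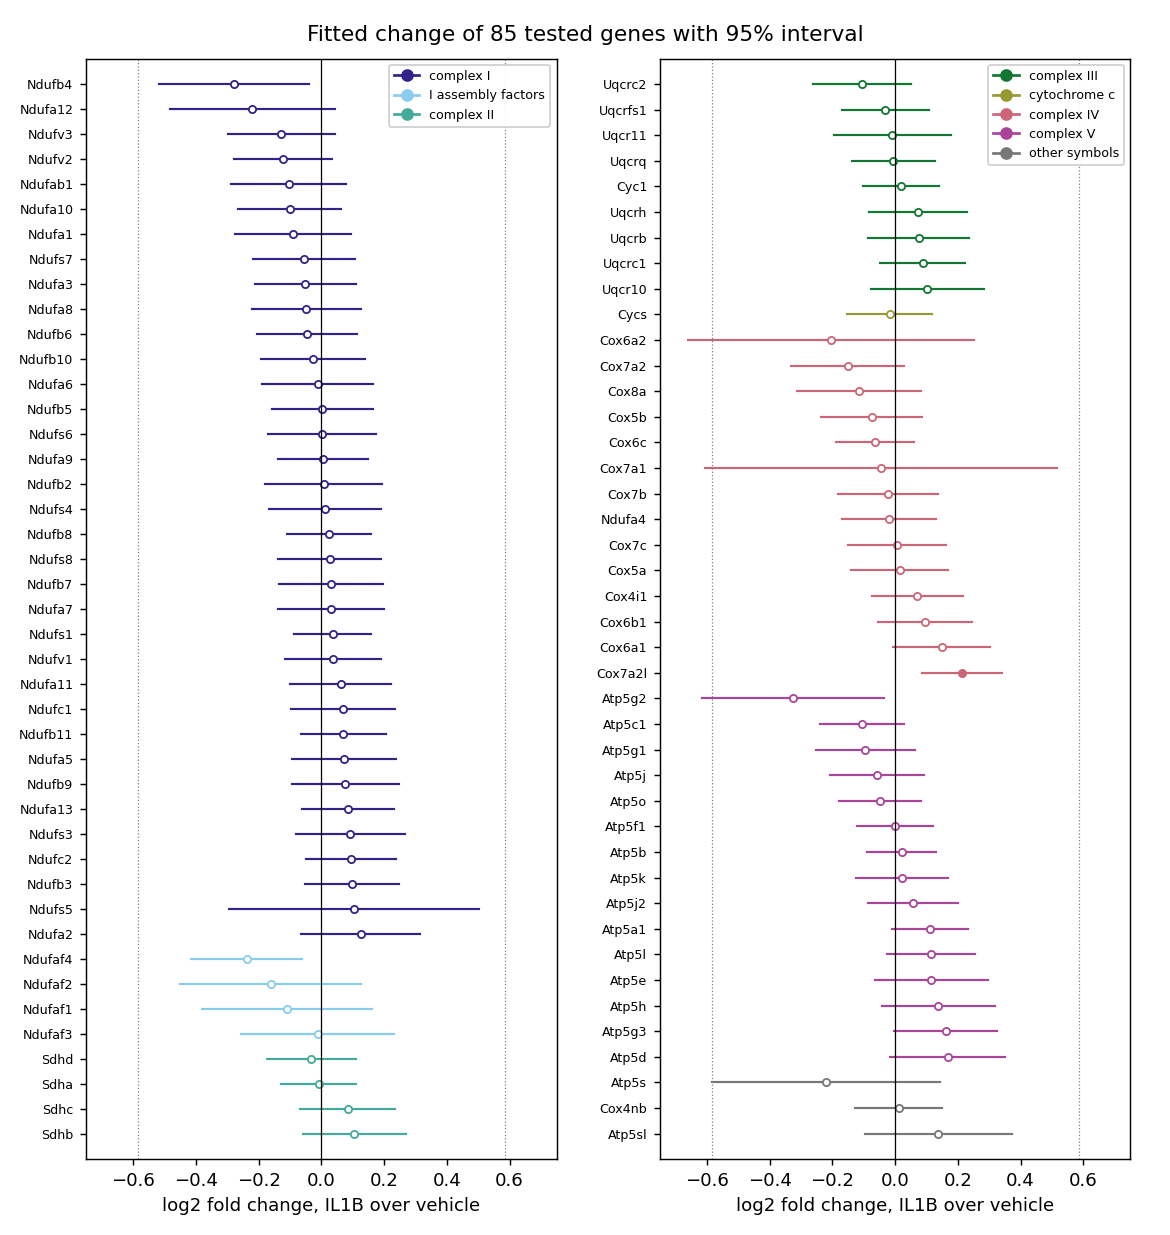
Fitted log2 fold change of IL1B over vehicle (horizontal axis) for 85 of the 86 tested genes with 95% intervals, coloured by complex and ordered within it; the filled point passed the adjusted threshold, and dotted lines mark 1.5-fold. The filled point is Cox7a2l at 0.21, and 82 of the 85 intervals stay between the dotted lines.

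Summed over the genes of each complex, the groups overlapped in every complex, but in complexes I, III and IV and in the sum of all 88 genes they did so only through the second vehicle library. Complex V carried the largest share of the CPM of these genes (36.1%), followed by complex I (27.6%), complex IV (19.9%), complex III (8.64%), complex II (4.26%) and cytochrome c (2.15%). The sum of all 88 genes was 15660, 18080, 16050 and 15600 CPM in vehicle libraries 1 to 4 and 16410, 17100 and 16510 in IL1B libraries 1 to 3, with means of 16350 ± 1168 (SD, n = 4) and 16670 ± 374 (n = 3). The second library was the highest of each group. The IL1B values lay inside the vehicle range only because of the second vehicle library: the other vehicle sums, 15600 to 16050 CPM, were below every IL1B sum. Without that library the vehicle sums were 4233 to 4398 CPM in complex I, 1351 to 1378 in complex III and 3085 to 3135 in complex IV, each below the lowest IL1B sum (4544, 1408 and 3304). In complexes II and V and in cytochrome c the groups overlapped without it too. In a fit over all libraries that corrected for transcript length and GC content, the median log2 fold change was 0.02 over the 86 genes (complex I 0.02, complex III -0.0006, complex IV 0.03) and -0.0056 over all tested genes.

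**Figure D4:**
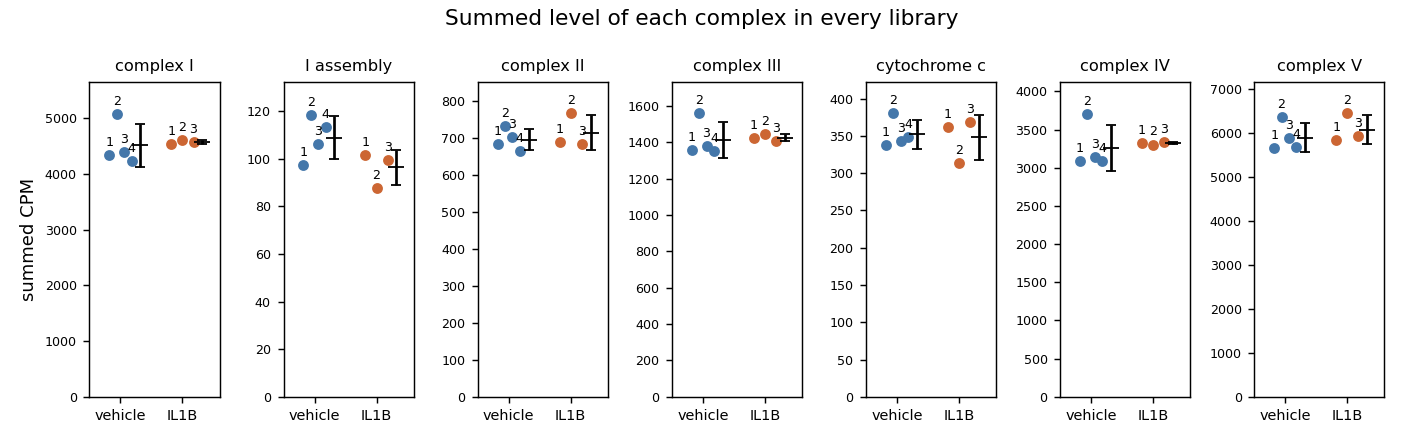
Summed CPM of the genes of each complex (vertical axes, each from 0) in every library, numbered as in the table; bars show the mean and SD of 4 vehicle and 3 IL1B libraries. The groups overlap in all 7 panels, in complexes I, III and IV only through Vehicle 2, which is the highest vehicle library in each panel.

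Complex I is the main entry point for electrons, and 0 of its 36 subunit genes passed the test (1, Ndufb4, at an unadjusted p under 0.05). Their summed level was 4339, 5086, 4398 and 4233 CPM with vehicle and 4544, 4604 and 4573 with IL1B, and the median log2 fold change was 0.018, with 23 of 36 genes above 0 (0.08 and 30 of 36 without the second vehicle library). The 7 core subunits, which carry the flavin and the iron-sulphur clusters of the matrix arm, had a median of 0.036 and the 29 accessory subunits 0.0070 (0.05 and 0.08 without that library). Ndufb8, an accessory subunit of the membrane arm often used as a marker of assembled complex I, stood at 289 ± 23.4 and 295 ± 10.2 CPM (0.03, adjusted p = 0.870). At the upper end Ndufa2, an accessory subunit, reached 0.13 (adjusted p = 0.460).

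The lowest fitted values of complex I came with the second IL1B library. Ndufb4, an accessory subunit, had 41.1, 46.0, 38.8 and 45.3 CPM with vehicle and 39.6, 26.8 and 39.1 with IL1B. Only the second IL1B library lay below the vehicle range (log2 fold change -0.28, SE 0.11, adjusted p = 0.146, and -0.12 without that library). Ndufa12, another accessory subunit, showed the same arrangement, with 95.8 to 117.4 CPM with vehicle and 108.1, 61.7 and 98.0 with IL1B (-0.22, adjusted p = 0.326, and -0.02 without the second IL1B library). With no filter on low counts both passed downward (adjusted p = 0.0341 for Ndufb4 and 0.0299 for Ndufa12). Another annotated gene matches 40.16% of the Ndufb4 transcript (Ndufb4c) and 36.22% of the Ndufa12 transcript (Gm15920) at 95% identity or more. How reads that match both were divided is not stated.

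Ndufs5, an accessory subunit, varied more than any other complex I gene between libraries. It had 39.5, 73.1, 53.8 and 44.2 CPM with vehicle and 69.1, 35.1 and 64.6 with IL1B, so that the second vehicle library was the highest of all and the second IL1B library the lowest. Its log2 fold change was 0.10 (SE 0.19, adjusted p = 0.814), and 0.56 when both second libraries were left out (adjusted p = 3.1e-05). Over 46.91% of its transcript matches the annotated gene BC002163 at 95% identity or more, and BC002163 was 92.5 ± 2.78 CPM with vehicle and 83.5, 109.2 and 93.6 with IL1B. The sum of both was 129.9, 163.5, 150.0 and 137.2 CPM with vehicle and 152.6, 144.3 and 158.2 with IL1B, and the groups overlapped. How reads that match both were divided is not stated.

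The 4 complex I assembly factors, which join the modules of the complex and leave it afterwards, had the lowest median of the groups (-0.14), and 0 of 4 passed (1, Ndufaf4, at an unadjusted p under 0.05). Ndufaf4 was at 48.8, 57.6, 53.4 and 57.9 CPM with vehicle and 49.4, 44.4 and 44.2 with IL1B. A single IL1B library overlapped the lowest vehicle library (log2 fold change -0.24, SE 0.08, adjusted p = 0.0849). With total-count scaling it was called lower (adjusted p = 0.04403), as it was without the first vehicle library (0.0462). Ndufaf2 had -0.16 (adjusted p = 0.550) and Ndufaf3 -0.01 (adjusted p = 0.975). The median of the 4 was 0.018 when both second libraries were left out.

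Complex II is encoded by 4 nuclear genes and also serves the TCA cycle, and 0 of 4 passed, also at an unadjusted p under 0.05. Sdha, the flavoprotein that oxidises succinate, had 275.5, 264.9, 282.4 and 268.5 CPM with vehicle and 272.6, 283.7 and 257.4 with IL1B. The IL1B libraries lay on both sides of the vehicle libraries and between them (log2 fold change -0.01, 95% interval 0.916 to 1.080 of the vehicle level, adjusted p = 0.959). Sdhb, the iron-sulphur subunit, was at 0.11 (adjusted p = 0.479), and the membrane anchors Sdhc and Sdhd at 0.08 (adjusted p = 0.552) and -0.03 (adjusted p = 0.840). The summed level was 667 to 733 CPM with vehicle and 685 to 769 with IL1B.

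In complex III 0 of 9 genes passed, also at an unadjusted p under 0.05, with a median log2 fold change of 0.018 and 5 genes above 0 (0.09 and 8 genes without the second vehicle library), and summed levels of 1358, 1560, 1378 and 1351 CPM with vehicle and 1421, 1448 and 1408 with IL1B. Cyc1, which encodes cytochrome c1, was level at 139.7 to 149.4 CPM with vehicle and 143.6 to 149.8 with IL1B (0.02, adjusted p = 0.900). Uqcrfs1, the Rieske iron-sulphur protein, was at -0.03 (adjusted p = 0.844), Uqcrc2, a core protein of the matrix side, at -0.11 (adjusted p = 0.449) and the small subunit Uqcr10 at 0.10 (adjusted p = 0.540). Cycs, the carrier between complexes III and IV, had 337.5, 380.0, 342.5 and 348.3 CPM with vehicle and 362.4, 313.0 and 368.1 with IL1B. Here the second IL1B library was the lowest of all and the second vehicle library the highest (-0.02, adjusted p = 0.919).

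Complex IV held the gene that passed. Cox7a2l (chr17:83501918-83517330 of GRCm38, minus strand) encodes a protein related to a complex IV subunit that ties complexes III and IV into supercomplexes. It had 172.6, 192.1, 167.3 and 174.2 CPM in the vehicle libraries and 205.4, 210.4 and 198.2 with IL1B. All 3 IL1B libraries lay above all 4 vehicle libraries, the nearest pair being 192.1 and 198.2 CPM. It rose 1.16-fold (log2 fold change 0.21, SE 0.06, 95% interval 0.08 to 0.34, edgeR adjusted p = 0.0280). The call is a narrow one: it was lost in 6 of 7 fits that left out 1 library (adjusted p = 0.0667 to 0.107) and kept when the second vehicle library was left out (adjusted p = 0.0016), and it was lost with upper-quartile (0.0636) and total-count scaling (0.0598). Over 31.23% of its transcript matches another annotated gene, Gm6969. The 250 bases before its RefSeq start (chr17:83514334-83514583, minus strand) are shown because it is the gene that passed, and they hold none of the motifs searched. They lie inside the GENCODE span given above, overlapping no GENCODE exon, so they are not the stretch before that span's 5′ end.
Cox7a2l upstream: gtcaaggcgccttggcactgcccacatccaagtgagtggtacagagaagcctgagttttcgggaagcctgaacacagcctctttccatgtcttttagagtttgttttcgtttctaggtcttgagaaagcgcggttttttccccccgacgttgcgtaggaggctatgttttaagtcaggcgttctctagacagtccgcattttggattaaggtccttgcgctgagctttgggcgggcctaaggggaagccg

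The other complex IV genes did not pass in the fit over all libraries. Cox6a1, a small nuclear subunit and the most abundant transcript of the chain per length, had 503.1, 622.8, 519.2 and 497.8 CPM with vehicle and 550.2, 640.6 and 591.1 with IL1B. Apart from the second vehicle library, every vehicle value lay below every IL1B value (log2 fold change 0.15, adjusted p = 0.242, and 0.23 with 0.0066 without that library). Cox4i1, the ubiquitous form of subunit 4, had 593.3, 723.6, 597.8 and 576.7 CPM with vehicle and 632.2, 681.9 and 649.8 with IL1B (0.07, adjusted p = 0.606, and 0.15 with 0.0339 when that library was left out). Its summed level with the other genes of the complex was 3085, 3706, 3135 and 3093 CPM with vehicle and 3329, 3304 and 3331 with IL1B. Ndufa4, a complex IV subunit despite its name, was at -0.02 (adjusted p = 0.919). The 6 genes that passed upward when both second libraries were left out were Cox4i1, Cox6a1, Cox7a2l, Cox7c, Ndufs5 and Uqcr11.

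The tissue isoforms of complex IV were low in this line. Cox6a2, of heart and muscle, had 5.27 to 7.36 CPM with vehicle and 4.05 to 7.43 with IL1B (-0.20, adjusted p = 0.651), and Cox7a1, also of heart and muscle, 2.47 to 4.46 and 2.33 to 4.05 CPM (-0.04, adjusted p = 0.952). Cox7b2, a testis form, had 5, 5, 2 and 2 counts with vehicle and 2, 2 and 1 with IL1B. Ndufa4l2, known as a hypoxia-induced paralogue of Ndufa4, had 1, 2, 2 and 2 counts with vehicle and 2, 0 and 1 with IL1B. At such counts no difference could be read for either of these last genes.

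In complex V 0 of 15 genes passed (1, Atp5g2, at an unadjusted p under 0.05). The summed level was 5655, 6375, 5881 and 5692 CPM with vehicle and 5850, 6462 and 5931 with IL1B, and the median log2 fold change was 0.022 (0.06 without the second vehicle library). Atp5b, the catalytic beta subunit, was the most abundant gene of the chain by CPM, at 1604, 1691, 1633 and 1600 with vehicle and 1592, 1767 and 1609 with IL1B. The IL1B range lay across the vehicle range (0.02, 95% interval 0.941 to 1.09 of the vehicle level, adjusted p = 0.868). Atp5a1, the alpha subunit, was at 0.11 (adjusted p = 0.265) and Atp5d, the delta subunit of the central stalk, at 0.17 (adjusted p = 0.273).

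Subunit c, which forms the rotating ring, is made from 3 genes with the same mature product, and their fitted values went different ways. Atp5g2 had 191.0, 244.1, 177.4 and 194.2 CPM with vehicle and 204.7, 109.7 and 167.5 with IL1B. The second IL1B library was lowest by a wide margin, and the first lay inside the vehicle range (log2 fold change -0.33, SE 0.14, adjusted p = 0.164). The value moved to -0.11 without the second IL1B library and to -0.0063 when both second libraries were left out, while it passed without the first IL1B library (-0.54, adjusted p = 0.0162) and with no filter on low counts (adjusted p = 2.7e-05). Atp5g3 had 453.6 to 514.1 CPM with vehicle and 482.4, 636.0 and 503.9 with IL1B (0.16, adjusted p = 0.227), with the second IL1B library this time the highest. Atp5g1 was at -0.09 (adjusted p = 0.514). Summed over the 3 genes the ring transcripts were 871, 1010, 873 and 855 CPM with vehicle and 898, 935 and 882 with IL1B. Over 88.24% of the Atp5g2 transcript matches another annotated gene, Gm10175.

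**Figure D5:**
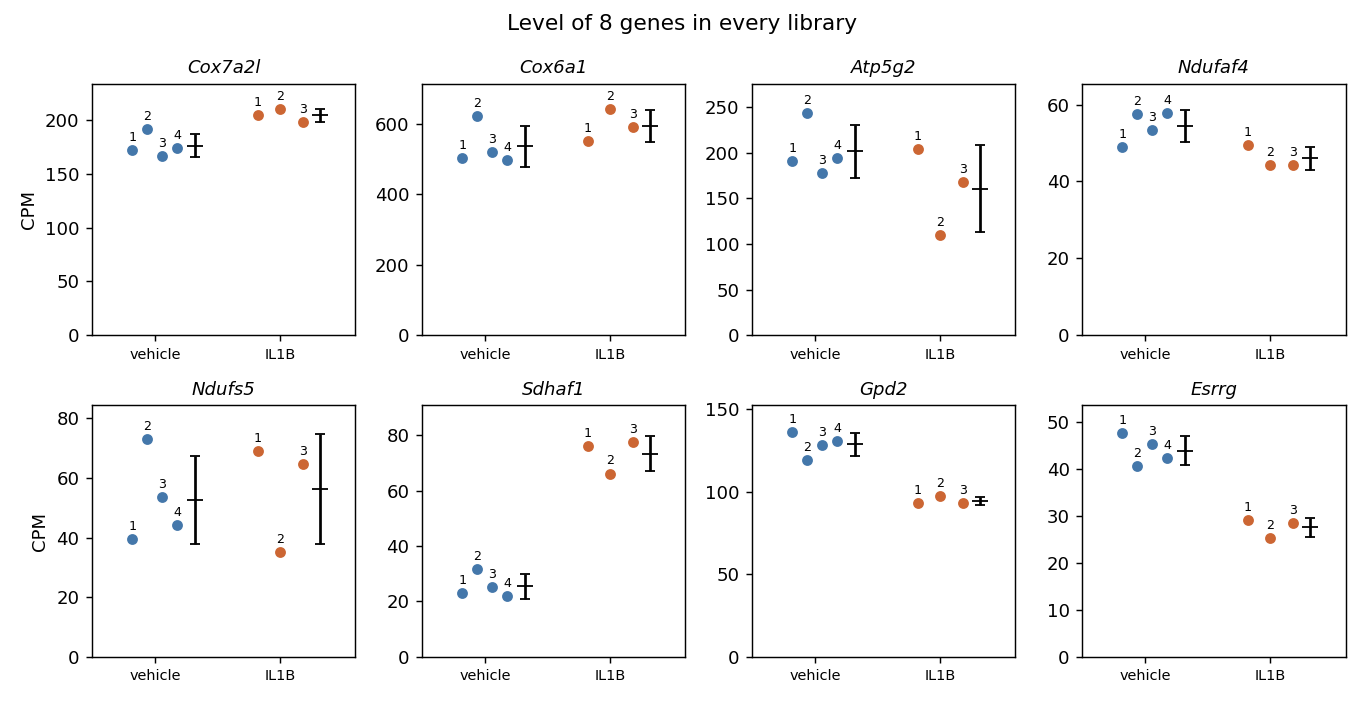
CPM (vertical axes, each from 0) of 5 genes of the chain and of Sdhaf1, Gpd2 and Esrrg in every library, numbered as in the table; bars show the mean and SD of 4 vehicle and 3 IL1B libraries. The groups are apart in Cox7a2l, Sdhaf1, Gpd2 and Esrrg, and in Atp5g2 and Ndufs5 the IL1B 2 library is the lowest of all 7.

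Levels differed far more between genes than between groups. Per kilobase of the principal transcript, a scale on which 80 genes could be ranked, Cox6a1 was the highest with vehicle (938 ± 103 CPM per kb), followed by Atp5b (852 ± 22.0), Cox4i1 (814 ± 88.6), Atp5g3 (669 ± 38.4), Cox8a (642 ± 80.6) and Atp5e (629 ± 70.7). The ranges over libraries overlap between each of these genes and its neighbours, except between Cox4i1 (754 to 946) and Atp5g3 (627 to 711). The assembly factors were far lower, from 37.2 ± 4.62 CPM per kb for Ndufaf2 to 9.76 ± 0.547 for Ndufaf3. The 6 lowest genes were the tissue isoforms Cox6a2 (9.29 ± 1.34), Cox7a1 (8.71 ± 2.12) and Cox7b2 (0.999 ± 0.394), and Atp5sl (7.01 ± 0.631), Atp5s (5.18 ± 0.359) and Ndufa4l2 (0.313 ± 0.118), which were taken by symbol alone. Cox4nb, Atp5s and Atp5sl did not pass the test either (log2 fold changes 0.01, -0.22 and 0.14, adjusted p = 0.947, 0.511 and 0.526).

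Genes that build or feed the chain without being part of it were read from lists, whose medians stand beside the -0.0087 of all tested genes. Of 43 tested assembly factors other than Ndufaf1 to Ndufaf4, 1 rose and 2 fell (median log2 fold change -0.04), against 7.76% of all tested genes higher and 3.25% lower. DESeq2 passed 1 of the 43 and limma-voom 3. Sdhaf1 (chr7:30321406-30323895, minus strand), which helps place iron-sulphur clusters in the complex II subunit Sdhb, had 22.91, 31.79, 25.03 and 21.91 CPM with vehicle and 76.20, 66.16 and 77.60 with IL1B. Every IL1B library was above every vehicle library, by more than the whole spread of either group. It rose 2.88-fold (log2 fold change 1.53, SE 0.11, adjusted p = 2.0e-09) and passed in all 16 alternative fits (adjusted p at most 9.8e-08). The 4 complex II genes themselves, given above, lay between -0.03 and 0.11. A gene on the opposite strand, E130208F15Rik, overlaps Sdhaf1, and without a stated strand setting the reads of the 2 cannot be told apart. Cox15, which makes the haem A of complex IV, fell by 0.25 on the log2 scale (adjusted p = 0.0223), and Lyrm7, a chaperone of the Rieske protein, by 0.64 (adjusted p = 0.0338). Both of these calls held in 10 of 16 alternative fits.

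Of 16 genes of electron entry and ubiquinone synthesis, 0 rose and 2 fell (median -0.04), and 1 passed with DESeq2 and with limma-voom. Over all tested genes 7.76% rose and 3.25% fell, the shares to set beside each list of this paragraph. Gpd2, the mitochondrial glycerol-3-phosphate dehydrogenase that carries cytosolic reducing equivalents to ubiquinone and is known to be abundant in beta cells, had 136.1, 119.3, 128.3 and 130.5 CPM with vehicle and 93.0, 97.2 and 93.1 with IL1B. The groups did not overlap, and it fell by 0.45 on the log2 scale (SE 0.07, adjusted p = 5.8e-05, past the threshold in 16 of 16 alternative fits). Coq3, a ubiquinone synthesis enzyme at 7.85 ± 0.462 CPM with vehicle, fell by 0.55 (adjusted p = 0.0419, kept in 7 of 16). Of 22 TCA cycle genes (median -0.02) 1 rose, Dlst, a subunit of the oxoglutarate dehydrogenase complex, from 149 ± 2.26 to 174 ± 4.21 CPM (log2 fold change 0.22, adjusted p = 0.0117, lost without the first IL1B library at 0.0515). Of 13 exchange and uncoupling genes (median -0.02) 0 passed with edgeR, DESeq2 or limma-voom. At an unadjusted edgeR p under 0.05 there were 4 of the 13, against 22.6% of all tested genes. Ucp2, the uncoupling protein of beta cells, was at 43.97 ± 1.17 CPM with vehicle and 42.16 ± 9.57 with IL1B (adjusted p = 0.830).

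Among 20 regulators of mitochondrial biogenesis (median 0.04) 3 rose and 1 fell, against 7.76% of all tested genes higher and 3.25% lower. DESeq2 passed 2 of the 20 and limma-voom 3. Esrrg, an orphan nuclear receptor known for activating genes of oxidative metabolism, had 47.7, 40.7, 45.3 and 42.3 CPM with vehicle and 29.1, 25.3 and 28.5 with IL1B. It fell by 0.67 on the log2 scale (SE 0.09, adjusted p = 2.5e-05, past the threshold in 16 of 16 alternative fits), with no overlap of the groups. Ppard, a nuclear receptor of fatty acid metabolism, rose from 11.2 ± 1.03 to 18.9 ± 0.86 CPM (log2 fold change 0.75, adjusted p = 1.6e-04, 16 of 16). Polg2, the accessory subunit of the mitochondrial DNA polymerase, and Yy1, a transcription factor, also rose (0.54, adjusted p = 0.0444, and 0.22, adjusted p = 0.0475), in calls kept in 6 and 5 of 16. The coactivator Ppargc1a (0.06, adjusted p = 0.864), Nrf1 (-0.01, 0.964), the mitochondrial DNA factor Tfam (-0.0042, 0.985) and Esrra (0.02, 0.953) did not pass.

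Of 14 tested genes that link inflammation or hypoxia to respiration (median -0.04), 2 rose: Hmox1, which degrades haem, from 108 ± 4.39 to 175 ± 5.35 CPM (log2 fold change 0.69, adjusted p = 6.2e-08), and Egln3, an oxygen-sensing prolyl hydroxylase, from 17.1 ± 1.84 to 29.2 ± 2.26 CPM (0.77, adjusted p = 3.2e-05). Ldha, of the same list, had 89.9, 75.6, 53.6 and 21.5 CPM with vehicle and 118.9, 34.1 and 24.3 with IL1B. It did not pass, and the cause of its spread within each group was not tested. AA467197, the mouse gene of a Ndufa4 paralogue known to be induced by inflammation, had 5, 1, 3 and 5 counts with vehicle and 11, 1 and 5 with IL1B and was too low to test. Irg1 and Nos2 of the same list were also too low to test, with more counts with IL1B. Irg1 had 0 counts in every vehicle library and 10, 9 and 7 with IL1B. Nos2 had 0, 1, 0 and 0 counts with vehicle and 6, 2 and 2 with IL1B. Of 18 beta-cell identity genes 1 rose and 5 fell, led by the transcription factors Pdx1 (fell by 0.56 on the log2 scale, adjusted p = 3.0e-07), Isl1 (by 0.59, 4.3e-07) and Mafa (by 0.47, 7.0e-06), while the KATP channel subunit Kcnj11 rose from 116 ± 3.73 to 173 ± 0.29 CPM. For both lists the share of all tested genes was 7.76% higher and 3.25% lower. DESeq2 and limma-voom each passed 2 of the 14 genes and 6 of the 18.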

How the data were processed

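RNA-seq of 7 Beta-TC6 libraries was analysed (3 IL1B, 4 vehicle). The deposited table holds raw counts by gene symbol, made by the authors before deposit. Per the submitters' processing notes the build was mm10, and STAR, RSEM, HOMER and DESeq2 are among the tools named, without roles; the counter of these reads, its annotation and its strand setting are not stated there. Vehicle columns carry the numbers of the sample titles. IL1B columns, numbered 1, 2 and 3 in the table and 1, 3 and 4 in the titles, were assigned to the group only.

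The main test was the quasi-likelihood test of edgeR 4.0.16 (R 4.3.3) over all 7 libraries, after TMM scaling and filterByExpr, with Benjamini-Hochberg adjustment over the 12480 tested genes and a threshold of 0.05. Standard errors were derived from the fold change and F, and 95% intervals use the fit's degrees of freedom. Members, lists and alternatives were chosen with earlier results of these data known. Named genes are those past the threshold, per complex the 2 highest by vehicle CPM, the 2 of smallest p and the extremes of fold change, the tissue isoforms, complex II, Cyc1 and Cycs, up to 4 passing genes per list and 6 fixed genes, of which AA467197 was too low to test. Ndufs5, Ndufa4, Atp5g1, Cox7c, Uqcr11, Ins2, Gcg, Sst, Nfkbia, Irg1, Nos2 and BC002163 were named after their values were seen. The values of 1 gene that the rule names are not reported here.

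Gene models were GENCODE vM21 (GRCm38), found for 97.8% of symbols and 87 of 88 members. With blastn 2.17.0, 23 members shared at least 30% of their transcript at 95% identity with another annotated gene. Motifs were searched in RefSeq promoters (GRCm38.p6). On simulated counts of this comparison (12388 genes) the edgeR test recovered 6.78% of 59 genes changed by 0.14 on the log2 scale, 42.5% of 40 changed by 0.32, 83.3% of 48 changed by 0.58 and 92.3% of 52 changed by 1.0, and 6.84% of 117 calls were false. The genes changed in the simulation mixed genes of the chain with other genes. It gave 117 calls against 1374 in the data, so its adjusted threshold was stricter. The rates are therefore not those of the chain, which were not computed. Apart from Atp5g2, the fitted changes of the chain were below 0.32 in size. Other settings tried were 3 other scalings (RLE, total counts, upper quartile), a minimum of 1 CPM in 3 libraries or no filter, limma-voom 3.58.1, DESeq2 1.42.0, a length and GC correction, and leaving out each library or both second libraries. Over all tested genes with enough counts, not the chain alone, counts differed by more than sampling noise in every pair of libraries of a group. The chi-square per degree of freedom was 1.52 to 4.88, and it was not computed for the chain by itself.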

Additional observations from a re-analysis of the deposited data

Results flagged for a closer look

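In groups of 4 libraries a value was picked out when its gap to the nearest library took more of the whole range than Dixon's 95% critical value allows, which chance gives in about 1 of 20 groups, or 2.1 of the 42 tested. This met 5 values, 4 of them in the second vehicle library, whose deviations over all genes follow transcript length. The summed level of complex III was 1560 CPM there, against 1351 to 1378 in the other vehicle libraries, and that of complex IV was 3706 CPM against 3085 to 3135. Ndufb8, an accessory subunit of complex I, was at 324.5 CPM against 276.6 to 279.4, and Cox4i1, subunit 4 of complex IV, at 723.6 against 576.7 to 597.8. In the first vehicle library Atp5sl was the lowest, at 14.48 CPM against 17.28 to 17.69. Over all 86 tested genes the second vehicle library was picked out as the highest in 7 and the first as the lowest in 1, against 4.3 by chance. Groups of 3 were not tested in this way.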

How the results depend on the processing

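The count of genes of the chain that passed upward was 1 over all libraries (7.76% of all tested genes). It was 0 with upper-quartile (6.99%) and total-count scaling (6.76%), and 6 when both second libraries were left out (9.36%). When 1 library was left out it was 0 to 3: 3 without the second vehicle library (9.09%) and 0 without any other (6.09% to 7.17%). The count downward was 0 over all libraries (3.25% of all tested genes) and 1 with total-count scaling (Ndufaf4, 4.46%). It was 3 with no filter on low counts (Atp5g2, Ndufa12 and Ndufb4, 2.78%). When 1 library was left out it was 0 to 1 (Ndufaf4 without Vehicle 1, 2.24%, and Atp5g2 without IL1B 1, 3.06%). Over all tested genes 406 fell, 252 to 589 when 1 library was left out (fewest without IL1B 3), and 676 without both second libraries. The median of the 4 complex I assembly factors moved from -0.14 to 0.018 in that fit, and the cause was not tested. Upper-quartile and total-count scaling moved the median of all genes to -0.034 and -0.041. No paired analysis was possible because the IL1B columns of the table carry other numbers than the sample titles.

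Depth limits the low genes: 3 counts, the limit that a count of 0 allows, equal 0.399 to 0.562 CPM of the library totals, for counting error only.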
